A study of Arabidopsis thaliana with 9 samples.

Results

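UGT genes encode uridine diphosphate (UDP) glycosyltransferases, and their transcript levels were compared in Arabidopsis thaliana suspension cells. Members were all genes whose symbol starts with UGT and a number and that had a probe set annotated to that gene alone. The rule gave 51 genes, out of 16550 genes with a probe set of their own. A probe set is the group of array probes that together give 1 signal. For the 5 members with 2 probe sets, the one with the higher mean over all arrays stood for the gene. RefSeq lists 58 genes with a UGT symbol in the TAIR10.1 assembly, and all 51 members were among them under the same symbol. Their symbols fall into 12 family numbers, from UGT71 to UGT89.

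A UGT moves a sugar, most often glucose, from a UDP-sugar onto a small molecule, and plant UGTs share a signature motif that binds the UDP-sugar. The acceptors include hormones, flavonoids, lignin precursors, glucosinolate precursors and foreign compounds. Adding a sugar usually makes the acceptor more soluble and less active, and lets it be stored in the vacuole, while beta-glucosidases can take the sugar off again. The number in a UGT symbol groups proteins by sequence, the letter that follows marks a subfamily, and the last number marks the single gene.

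The study asked which genes lie downstream of LHW and T5L1, a pair of transcription factors of vascular development. All cells came from the suspension line Alex in the Col-O background, grew in the dark and carried estrogen-inducible LHW and a T5L1-GFP fusion. The 9 samples formed 3 groups of 3 replicates, each on 1 array. The first group was treated with 5 µM estrogen for 12 h, the second was kept for 12 h without estrogen, and the third was taken at 0 h. No group of estrogen-treated cells without the inducible genes was analysed here, so an effect of estrogen itself and one of LHW with T5L1 cannot be told apart. The labels do not say that replicates were separate cultures, so p-values reflect only how much these arrays varied, and that variation may be technical. What else was done to the cells at 0 h is not given in the sources used here.

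Values are the deposited log2 signals, on which a difference of 1 is a 2-fold change. The number of arrays limits their precision. In these bulk samples, fewer cells of a type and less RNA per cell cannot be told apart. LHW served as the check on induction, with signals of 10.72, 11.05 and 11.24 at 12 h with estrogen, against 8.72, 8.60 and 8.14 at 12 h without it. Array medians lay between 5.28 and 6.21. Replicate 3 stood apart in every group. It gave exactly equal values in at least 2 groups for 32 of the 51 members (62.7%, against 52.1% of all genes), whereas replicates 1 and 2 did so for 0 and 2 members. For 27 members replicate 3 was equal with and without estrogen, which sets that pair's difference to 0. Replicate 3 was also the highest of its group for 36 members with estrogen, 32 members without estrogen and 35 members at 0 h. The 23 background rows ran from 1.08 to 8.2 with a median of 4.2, so 4.2 is the middle of a wide range and not a limit of detection. By that mark 24 members were below it in all 3 groups (47.1%, against 36.5% of all genes), 20 were above it in all 3, and 7 changed sides. Probe sequences were not used here, so cross-hybridisation between UGT genes of similar sequence was not tested.

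What induction did to these genes was read from the cells kept for 12 h with estrogen against those kept for 12 h without. No UGT gene passed the test. Limma called 0 of 51 members at an adjusted p under 0.05, and 0 of 51 had an unadjusted p under 0.05. Among all genes the shares were 0.0242% and 1.8%. The differences ran from -0.59 for UGT89B1 to 0.54 for UGT78D1, and their median was -0.03, against 0.01 over all genes. Every 95% interval included 0, and the intervals together ran from -1.40 to 1.36. For 39 of 51 members the whole interval lay within a 2-fold change either way, so larger changes were outside the interval for those genes and inside it for the other 12. The equal replicate 3 values of 27 members draw their differences towards 0, and the intervals do not allow for this. For 2 of these 27, replicates 1 and 2 alone gave -0.63 rather than -0.42 (UGT74B1) and 0.81 rather than 0.54 (UGT78D1). UGT89B1, at the low end of the range, is also among the 27, with 4.66 in replicate 3 of both groups. Its replicates 1 and 2 had 4.98 and 5.21 with estrogen, against 5.98 and 5.98 without. Both of these pairs lay further apart than the -0.59 fitted over 3 arrays per group. With the replicate number as a block, 0 members were called, against 0.0423% of all genes. At an unadjusted p under 0.05 the block gave 5 of 51 members (UGT71B5, UGT72B3, UGT74B1, UGT84B2 and UGT89B1), a larger share than the 4.41% of all genes. In replicates 1 and 2 alone, 0 members were called, against 0.199% of all genes.

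Values for the 4 members with the smallest p in that comparison show how the replicates spread. UGT84B2, whose close relative UGT84B1 glucosylates the auxin indole-3-acetic acid, had signals of 4.03, 4.02 and 4.28 with estrogen, against 5.02, 4.17 and 4.60 without. Each estrogen-treated array was below its same-numbered partner, but the groups overlapped (log2 -0.49, SE 0.24, unadjusted p = 0.0761 and adjusted p = 1 by limma). UGT74B1, which glucosylates thiohydroximates in glucosinolate synthesis, had 4.29, 4.41 and 4.94 with estrogen, against 4.91, 5.05 and 4.94 without. Replicates 1 and 2 were lower with estrogen by 0.62 and 0.64 on the log2 scale, and replicate 3 had the same value in both groups. UGT71B5 had 6.17, 6.04 and 6.97 with estrogen, against 5.72, 5.74 and 6.13 without, higher with estrogen in all 3 pairs but with overlapping groups (log2 0.53, SE 0.30). UGT78D1, a flavonol 3-O-rhamnosyltransferase, had 3.18, 3.43 and 3.07 with estrogen, against 2.06, 2.92 and 3.07 without. Its whole difference came from replicates 1 and 2, and its signals lay below the background median in all 3 groups.

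**Figure D1:**
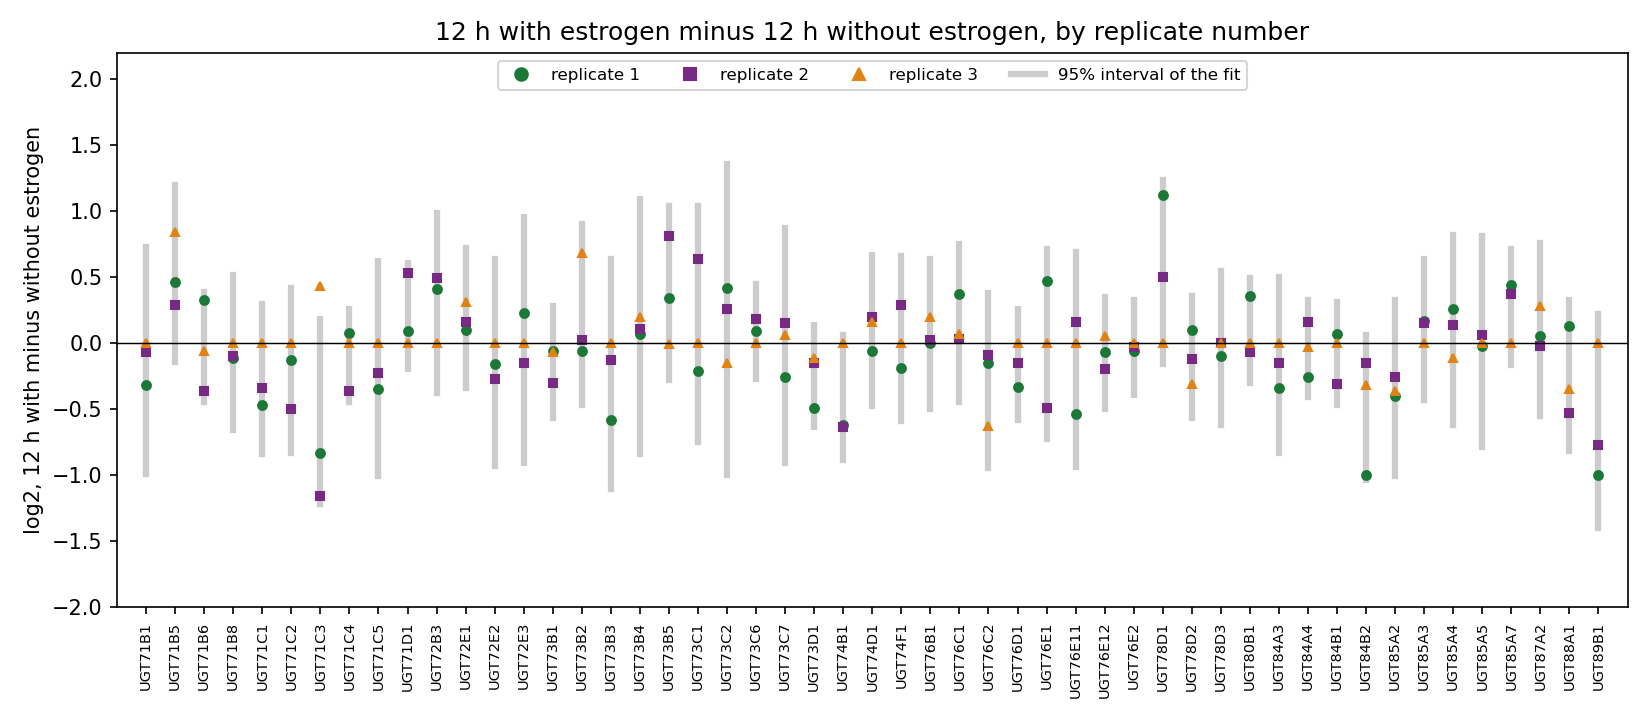
Log2 difference between cells with and cells without estrogen at 12 h for each of the 51 UGT genes (horizontal axis), 1 point per replicate number, with the 95% interval of the limma fit as a grey bar. All 51 bars cross 0, and the replicate 3 point sits at exactly 0 for 27 genes.

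Against 0 h, UGT genes changed in both groups at 12 h, and more of them fell than rose. With estrogen, 13 members were lower than at 0 h (25.5%, against 13.6% of all genes) and 4 were higher (7.84%, against 16.5%). Without estrogen, 12 members were lower than at 0 h (23.5%, against 13.6% of all genes) and 4 were higher (7.84%, against 16.4%). The median difference of the 51 members was -0.16 with estrogen and -0.12 without, against -0.00 over all genes in both. Both comparisons use the same 0 h arrays and so are not independent. In both, 12 members were called lower (UGT71B5, UGT71C2, UGT71C4, UGT72E1, UGT73B3, UGT73B5, UGT76B1, UGT76C1, UGT76E12, UGT85A4, UGT87A2 and UGT88A1) and 3 were called higher (UGT71C3, UGT74D1 and UGT78D2). UGT76C2 and UGT78D1 were called with estrogen alone and UGT89B1 without estrogen alone, but none of these 3 differed between the estrogen groups by the test, and each of these calls changed with the settings, as given below. The remaining 33 members were called in neither.

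Groups of arrays did not overlap for 19 members with estrogen against 0 h (37.3%, against 36.1% of all genes) and for 18 without estrogen against 0 h (35.3%, against 36.2%), which is close to the background. The replicate block raised the counts to 16 lower and 7 higher with estrogen (all genes 19% and 22.4%), and to 14 lower and 8 higher without (all genes 19.3% and 22.3%). It lost none of the calls above. Replicates 1 and 2 alone gave 14 lower and 6 higher with estrogen, and 14 lower and 8 higher without, where the shares of all genes were 19.9% lower and 23.2% higher in both. How the arrays are scaled moves this split. When each array was centred on its median, 32 members were lower and 1 higher with estrogen (all genes 45.6% and 10.8%), and 27 lower and 3 higher without (all genes 40.7% and 11.4%). That centring moved the median of all genes to -0.52 with estrogen and -0.47 without. Relative to the median of all genes the members lay at -0.16 and -0.12 as deposited, and at -0.14 and -0.10 after quantile normalization. Centring cannot change these relative values, because it shifts all genes of an array equally.

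**Figure D2:**
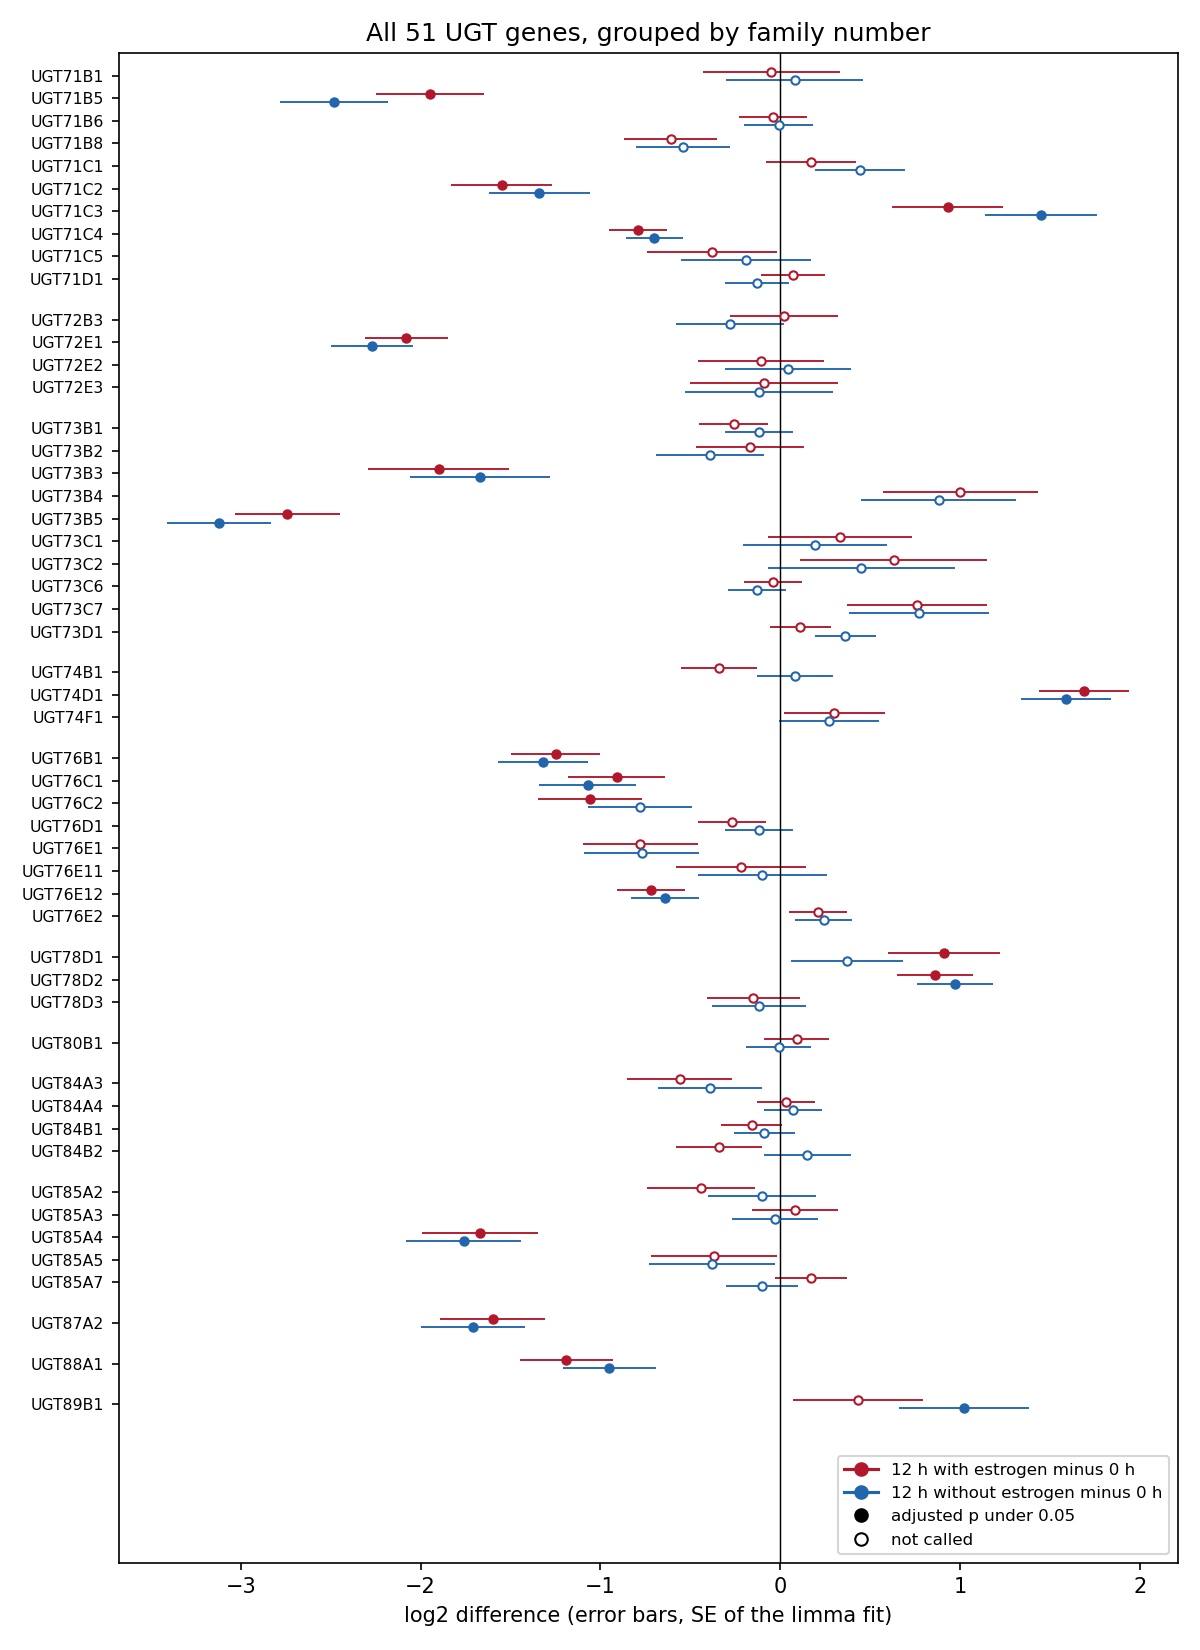
Log2 difference from 0 h for all 51 UGT genes, by family number, for 12 h with estrogen (red, above) and 12 h without estrogen (blue, below). Bars are the SE of the limma fit over 3 arrays per group, and filled points have an adjusted p under 0.05. The 2 comparisons share the 0 h arrays, and most called genes lie left of 0.

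The largest fall was in the UGT73 family, where 2 of 10 members were called in each comparison with 0 h, both lower. UGT73B3 and UGT73B5 take part in the response of leaves to pathogenic bacteria. UGT73B5 (AT2G15480) had signals of 4.21, 4.69 and 4.86 with estrogen, 3.87, 3.89 and 4.87 without estrogen, and 7.17, 7.45 and 7.37 at 0 h. All arrays at 12 h were far below all arrays at 0 h. It was 6.68-fold lower with estrogen (log2 -2.74, SE 0.29, adjusted p = 9.89e-05) and 8.69-fold lower without (log2 -3.12, SE 0.29, adjusted p = 4.97e-05). UGT73B3 (AT4G34131) had 3.84, 4.44 and 4.46 with estrogen, 4.42, 4.57 and 4.46 without, and 6.53, 6.78 and 5.14 at 0 h. The groups at 12 h and 0 h did not overlap, although replicate 3 at 0 h was much lower than the other 2. Its log2 difference was -1.90 (SE 0.39, adjusted p = 0.00361) with estrogen and -1.67 (SE 0.39, adjusted p = 0.00764) without.

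UGT73B4 (AT2G15490), which can conjugate the explosive TNT, differed from its called relatives. It had 5.27, 4.93 and 6.41 with estrogen, 5.20, 4.83 and 6.21 without, and 4.37, 4.55 and 4.68 at 0 h. All arrays at 12 h were above those at 0 h, but the spread at 12 h was wide. Its differences of 1.0 (SE 0.43, adjusted p = 0.0967) with estrogen and 0.88 (SE 0.43, adjusted p = 0.146) without did not pass. With the replicate block they did (adjusted p = 0.0193 and 0.0324). They also passed with a block that sets replicate 3 apart, called the processing batch block (adjusted p = 0.0117 and 0.0214). In replicates 1 and 2 alone the difference with estrogen passed (0.64, adjusted p = 0.0432). The other UGT73B genes, UGT73B1 and UGT73B2, were not called and had means of 2.2 to 2.97 in the 3 groups. Among the rest of the family, UGT73C1 (also active on TNT and on cytokinins), UGT73C2, UGT73C6 (a flavonol glucosyltransferase), UGT73C7 (active on hydroxycinnamic acids) and UGT73D1 were not called. UGT73C7 had the largest differences of these 5, 0.76 with estrogen and 0.77 without (SE 0.39 each). With the replicate block it was called (adjusted p = 0.0025 and 0.00234), as were UGT73C2 in both comparisons (adjusted p = 0.0106 and 0.0392) and UGT73D1 without estrogen (adjusted p = 0.0463). The family median was 0.04 in both comparisons. After quantile normalization it was -0.05 with estrogen and -0.08 without, against -0.20 and -0.18 over all genes, so no direction is given.

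Members of UGT71, the other family of 10, went both ways. In each comparison 3 were called lower and 1 higher. UGT71B5 (AT4G15280) had the largest fall. Its signals, given above for 12 h, were 8.14, 8.06 and 8.82 at 0 h, with no overlap. It was 3.86-fold lower with estrogen (log2 -1.95, SE 0.30, adjusted p = 0.000678) and 5.57-fold lower without (log2 -2.48, SE 0.30, adjusted p = 0.000185). UGT71C2 (AT2G29740) had 2.78, 2.41 and 2.48 with estrogen, 2.91, 2.91 and 2.48 without, and 4.42, 4.43 and 3.48 at 0 h. Its groups did not overlap (log2 -1.55 with estrogen, adjusted p = 0.00167, and -1.34 without, adjusted p = 0.0039, SE 0.28 each), but all group means lay below the background median. UGT71C4 (AT1G07250) fell by less, to means of 6.76 ± 0.09 with estrogen and 6.85 ± 0.16 without, against 7.55 ± 0.13 at 0 h (SD, n = 3, limma adjusted p = 0.00321 and 0.00662).

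The rise in the family was in UGT71C3 (AT1G07260), which glucosylates methyl salicylate. It had 6.26, 6.04 and 7.11 with estrogen, 7.09, 7.20 and 6.68 without, and 5.69, 5.13 and 5.81 at 0 h. All arrays at 12 h were above those at 0 h. The difference without estrogen was 1.45 (SE 0.31, adjusted p = 0.00462). With estrogen it was 0.93 (SE 0.31, adjusted p = 0.0381), and that call was lost in 9 of 18 alternative settings. Among these was the omission of 0 h replicate 1 or 2, of estrogen-treated replicate 1 or 3, or of untreated replicate 1 or 2, which gave 0.61 (without estrogen-treated replicate 3) to 1.03. Quantile normalization and centring each gave 0.41 (adjusted p = 0.301 and 0.227). In replicates 1 and 2 the estrogen-treated arrays were lower than the untreated ones by 0.83 and 1.16 on the log2 scale, and in replicate 3 higher by 0.43, so the estrogen groups overlapped. UGT71B6 and UGT71C5, both able to glucosylate abscisic acid, were not called. Their differences from 0 h were -0.04 and -0.38 with estrogen, and -0.01 and -0.19 without. A second, dimmer probe set of UGT71B6 gave -0.51 with estrogen and -0.45 without (adjusted p = 0.505 and 0.564). It was called lower with the replicate block (adjusted p = 0.0123 and 0.0202), and its means lay below the background median in all groups. UGT71B8 and UGT71C5 were called lower with the replicate block, UGT71B8 in both comparisons (adjusted p = 0.00626 and 0.0106) and UGT71C5 with estrogen (adjusted p = 0.0314). UGT71B1 had 2.94, 3.22 and 4.08 with estrogen, 3.26, 3.3 and 4.08 without, and 3.17, 3.14 and 4.08 at 0 h. Its difference without estrogen was 0.08, and -0.07 after quantile normalization, so no direction is given. The remaining members, UGT71C1 and UGT71D1, were not called, with differences from -0.13 to 0.44.

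Genes for lignin precursors stand in the UGT72 family, of which 1 of 4 members was called. UGT72E1 (AT3G50740), which glucosylates coniferyl and sinapyl aldehyde, had 7.92, 7.93 and 8.14 with estrogen, 7.81, 7.77 and 7.84 without, and 9.81, 9.78 and 10.64 at 0 h. The arrays at 12 h were close together and all below those at 0 h. It was 4.23-fold lower with estrogen (log2 -2.08, SE 0.23, adjusted p = 0.000132) and 4.82-fold lower without (log2 -2.27, SE 0.23, adjusted p = 8.41e-05). All 3 estrogen-treated arrays of UGT72E1 were above all 3 untreated ones, a gap of 0.19 in the means (SE 0.23, adjusted p = 1). UGT73D1 was the other member whose estrogen groups did not overlap, which makes 2 of 51 (3.92%, against 3.37% of all genes). UGT72E2 and UGT72E3, which act on the monolignols coniferyl and sinapyl alcohol, had means between 1.74 and 2.67 in all groups. UGT72E2 had 1.51, 1.35 and 2.38 with estrogen, 1.67, 1.62 and 2.38 without, and 1.71, 1.47 and 2.38 at 0 h. Its differences were -0.11 with estrogen and 0.04 without, the second of which turned to -0.02 after quantile normalization. UGT72B3 was not called either (0.02 with estrogen and -0.28 without).

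In UGT76, 4 of 8 members were called lower with estrogen, 3 of 8 were called lower without and 0 were higher in either, where 13.6% of all genes were lower in each comparison. Families were not tested as such. The family median was -0.75 with estrogen and -0.71 without, against -0.00 over all genes in both. It was -0.99 and -0.94 after quantile normalization, and -1.27 and -1.17 after centring. Both scalings also lowered the median of all genes, so they are no test of this direction. UGT76B1 (AT3G11340), which glucosylates salicylic acid, N-hydroxypipecolic acid and isoleucic acid in immunity, had 3.81, 4.08 and 4.66 with estrogen, 3.82, 4.06 and 4.46 without, and 5.27, 5.56 and 5.47 at 0 h. No array at 12 h reached the 0 h range (log2 -1.25, adjusted p = 0.00347 with estrogen, and -1.32, adjusted p = 0.00265 without, SE 0.25 each). The neighbouring genes UGT76C1 and UGT76C2 encode the enzymes that add glucose to the ring nitrogens of cytokinins. UGT76C1 (AT5G05870) had 5.02, 5.32 and 4.54 with estrogen, 4.65, 5.29 and 4.47 without, and 5.89, 5.71 and 6.01 at 0 h. It was lower on every array at 12 h (log2 -0.91, adjusted p = 0.0211 with estrogen, and -1.07, adjusted p = 0.0104 without, SE 0.27 each). The call with estrogen was lost in replicates 1 and 2 alone (-0.63, adjusted p = 0.0921). It was also lost without 0 h replicate 1 (-0.90), 0 h replicate 3 (-0.84) or estrogen-treated replicate 3 (-0.70).

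UGT76C2 (AT5G05860) had 6.53, 6.72 and 6.31 with estrogen, 6.68, 6.81 and 6.94 without, and 7.15, 7.28 and 8.32 at 0 h. All arrays at 12 h were below those at 0 h, and replicate 3 at 0 h stood more than 1 log2 unit above the other 2. The difference passed with estrogen (log2 -1.06, SE 0.29, adjusted p = 0.0169), though not without replicate 3 with estrogen (-0.96, adjusted p = 0.0559). Without estrogen it did not pass (log2 -0.78, SE 0.29, adjusted p = 0.0654), but it was called lower there in 7 of 18 alternative settings. These were the processing batch block (adjusted p = 0.0471), replicates 1 and 2 only (0.0274), quantile normalization (0.00783), centring (0.00404), removal of the dimmest probe sets (0.0497), array weights (0.0208) and the omission of 0 h replicate 1 (0.0368). The difference between the estrogen groups was -0.29 (95% interval -0.95 to 0.38). UGT76E12 (AT3G46660) fell to 6.47 ± 0.28 with estrogen and 6.54 ± 0.17 without, against 7.18 ± 0.09 at 0 h (SD, n = 3, limma adjusted p = 0.0126 and 0.0221). Its second, dimmer probe set was not called (-0.34, adjusted p = 0.478 with estrogen, and -0.26, adjusted p = 0.604 without). UGT76E2 had 3.03, 3.23 and 3.13 with estrogen, 3.09, 3.25 and 3.13 without, and 2.73, 2.90 and 3.13 at 0 h. Its differences of 0.21 and 0.24 did not pass and turned to -0.31 and -0.22 when arrays were centred. UGT76D1, which acts on dihydroxybenzoic acids, UGT76E1 and UGT76E11 were not called, with differences of -0.27, -0.78 and -0.22 with estrogen, and -0.12, -0.77 and -0.10 without.

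UGT74 had 1 of 3 members called higher in each comparison, and UGT78 had 2 of 3 with estrogen and 1 of 3 without, with 0 lower in either family. The UGT74 median was 0.30 with estrogen and 0.27 without, and turned to -0.22 and -0.20 when arrays were centred. The UGT78 median was 0.86 with estrogen and 0.37 without, and 0.34 and -0.10 when arrays were centred. Centring moved the median of all genes to -0.52 with estrogen and -0.47 without, and both family medians stayed above those values. UGT74D1 (AT2G31750), which glucosylates oxidised auxin, had 7.06, 7.48 and 7.83 with estrogen, 7.13, 7.28 and 7.67 without, and 5.67, 5.52 and 6.11 at 0 h. Every array at 12 h was above those at 0 h. It was 3.22-fold higher with estrogen (log2 1.69, SE 0.25, adjusted p = 0.000638) and 3.01-fold higher without (log2 1.59, SE 0.25, adjusted p = 0.000933). A second probe set of UGT74D1 had means of 3.77, 3.72 and 3.77, below the background median, with differences of -0.00 and -0.05, so the rise rests on 1 probe set. UGT74B1, described above for 12 h, had 4.73, 4.77 and 5.17 at 0 h and was not called. UGT74F1, which glucosylates salicylic acid, was not called either (0.30 with estrogen and 0.27 without, SE 0.28 each).

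UGT78D2 (AT5G17050), a flavonoid 3-O-glucosyltransferase, had 4.75, 4.66 and 4.94 with estrogen, 4.65, 4.78 and 5.24 without, and 3.81, 3.77 and 4.19 at 0 h. The groups at 12 h and 0 h did not overlap. It was 1.81-fold higher with estrogen (log2 0.86, SE 0.21, adjusted p = 0.0083) and 1.95-fold higher without (log2 0.97, SE 0.21, adjusted p = 0.00465). When arrays were centred the call with estrogen was lost (0.34, adjusted p = 0.0562). UGT78D1 (AT1G30530) had 1.99, 2.12 and 2.83 at 0 h, all below its estrogen-treated arrays given above. Its difference from 0 h was 0.91 with estrogen (SE 0.31, adjusted p = 0.0431) and 0.37 without (SE 0.31, adjusted p = 0.433). The call with estrogen was lost in 7 of 17 alternative settings, which were centring (0.39, adjusted p = 0.235) and the omission of 0 h replicate 1 or 2, of any estrogen-treated replicate, or of untreated replicate 2 (0.75 to 0.99 over these omissions). The difference without estrogen turned to -0.10 when arrays were centred. UGT78D3, a flavonol 3-O-arabinosyltransferase, had 4.12, 4.12 and 4.77 with estrogen, 4.22, 4.12 and 4.77 without, and 4.48, 4.22 and 4.77 at 0 h. The 3 groups overlapped, with replicate 3 equal in all of them, and its differences of -0.15 and -0.12 did not pass. UGT78D3 was called lower after quantile normalization (-0.53, adjusted p = 0.0249 with estrogen, and -0.45, adjusted p = 0.0469 without). It was also called lower after centring (-0.67, adjusted p = 0.00851, and -0.59, adjusted p = 0.0168). Both scalings also lowered the median of all genes.

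**Figure D3:**
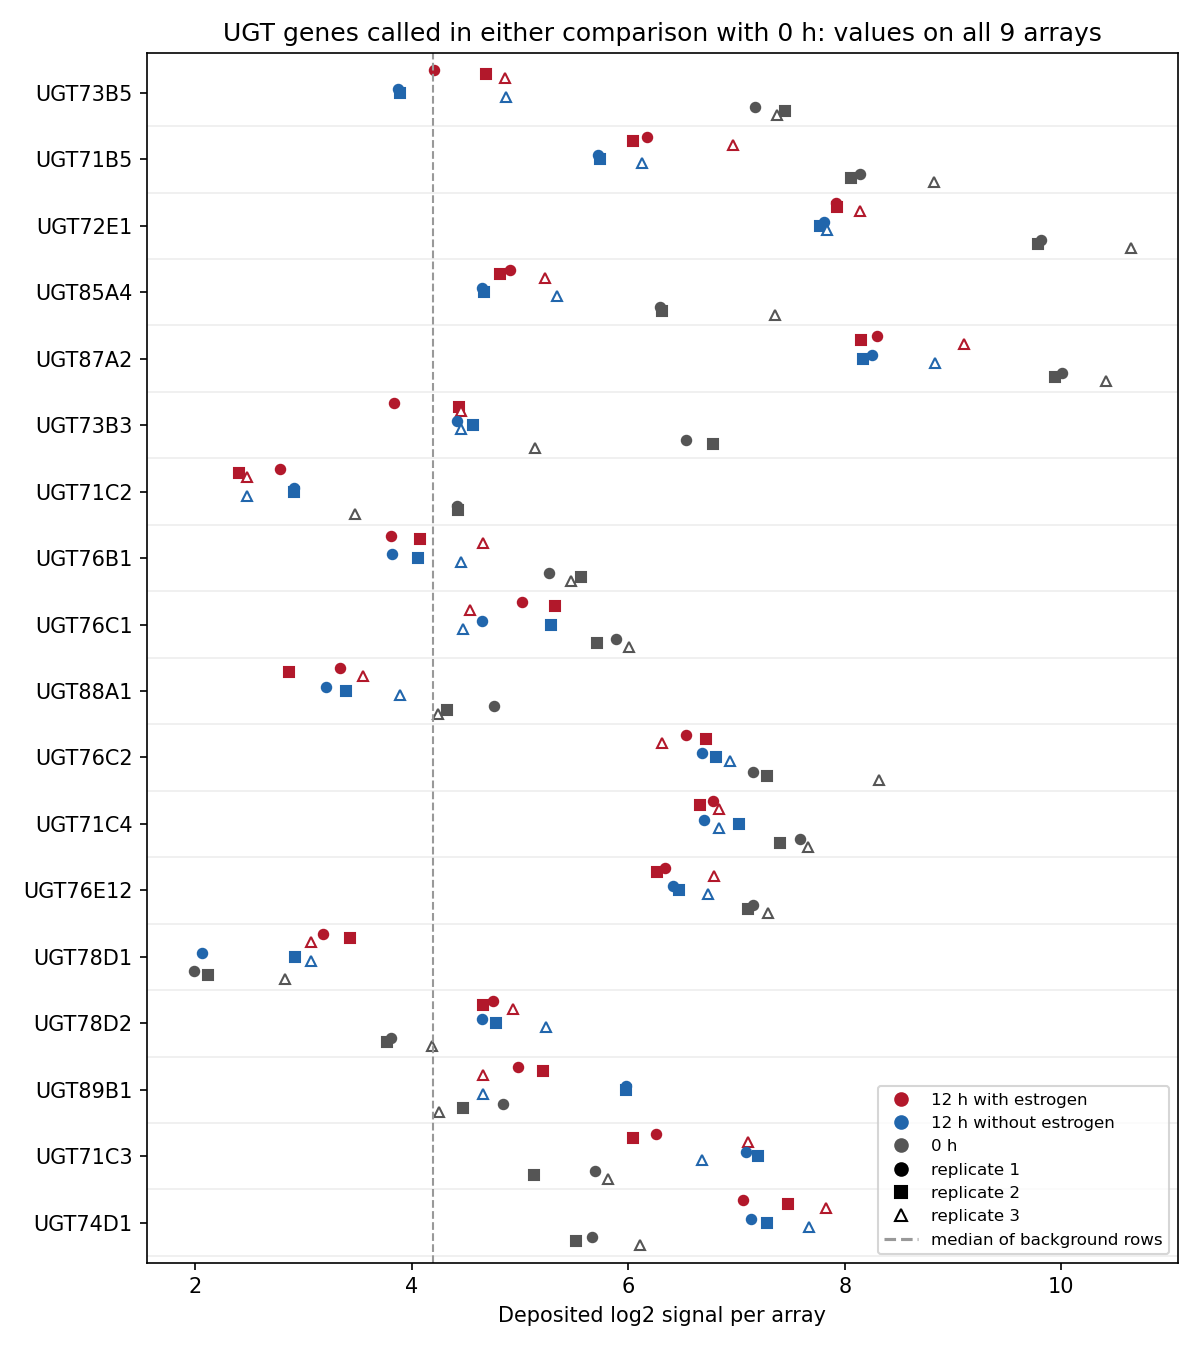
Deposited log2 signals on all 9 arrays for the 18 UGT genes called against 0 h with or without estrogen, with 12 h with estrogen in red, 12 h without estrogen in blue and 0 h in grey, and 1 marker shape per replicate number. The dashed line is the median of the background rows (4.2). For 16 of the 18 genes neither red nor blue points overlap the grey ones, the exceptions being UGT78D1 and UGT89B1.

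In the UGT85 family 1 of 5 members was called. UGT85A4 (AT1G78270) had 4.91, 4.82 and 5.23 with estrogen, 4.65, 4.67 and 5.34 without, and 6.29, 6.31 and 7.36 at 0 h. All arrays at 12 h were below those at 0 h. It was 3.18-fold lower with estrogen (log2 -1.67, SE 0.32, adjusted p = 0.00248) and 3.4-fold lower without (log2 -1.76, SE 0.32, adjusted p = 0.00189). A second probe set of UGT85A4 showed smaller differences that did not pass (-0.71, adjusted p = 0.0625 with estrogen, and -0.59, adjusted p = 0.119 without). UGT85A2 had the brightest probe set, with 9.22, 9.35 and 8.65 with estrogen, 9.62, 9.61 and 9.0 without, and 9.28, 9.21 and 10.04 at 0 h. Replicate 3 was the lowest array at 12 h and the highest at 0 h. The differences of -0.44 with estrogen and -0.10 without did not pass, and in replicates 1 and 2 alone they were 0.04 (adjusted p = 0.771) and 0.37 (adjusted p = 0.0291), so the direction of UGT85A2 rests on replicate 3. After centring, which also lowered the median of all genes, UGT85A2 was called lower with estrogen (-0.96, adjusted p = 0.0385). UGT85A5 was called lower with the replicate block alone (adjusted p = 0.0163 with estrogen and 0.0145 without), and UGT85A3 and UGT85A7 were not called.

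Families with a single member held 3 called genes. UGT87A2 (AT2G30140), which affects flowering time, had 8.30, 8.15 and 9.10 with estrogen, 8.25, 8.17 and 8.83 without, and 10.01, 9.94 and 10.41 at 0 h. The groups at 12 h and 0 h were well apart. It was 3.03-fold lower with estrogen (log2 -1.60, SE 0.29, adjusted p = 0.00182) and 3.26-fold lower without (log2 -1.71, SE 0.29, adjusted p = 0.00133). UGT88A1 (AT3G16520) had 3.34, 2.87 and 3.55 with estrogen, 3.21, 3.39 and 3.89 without, and 4.76, 4.33 and 4.24 at 0 h. It was lower on every array at 12 h (log2 -1.19, adjusted p = 0.00457 with estrogen, and -0.95, adjusted p = 0.0155 without, SE 0.26 each), from 0 h signals close to the background median. The call without estrogen was lost when 0 h replicate 1, untreated replicate 1 or untreated replicate 2 was left out (-0.79, -0.80 and -0.89). UGT89B1 (AT1G73880) had 4.98, 5.21 and 4.66 with estrogen, 5.98, 5.98 and 4.66 without, and 4.84, 4.47 and 4.25 at 0 h. Replicates 1 and 2 without estrogen stood above all other arrays, but replicate 3 did not, and the groups overlapped. Its difference of 1.02 without estrogen (SE 0.36, adjusted p = 0.0481) was called, and the call was lost in 12 of 18 alternative settings, including the omission of any single array other than untreated replicate 3 (0.80 to 1.18), quantile normalization (0.65) and centring (0.55). With estrogen it was 0.43 (adjusted p = 0.422), and -0.09 when arrays were centred.

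UGT80B1, a sterol glucosyltransferase, was not called (0.09 with estrogen and -0.01 without, SE 0.18 each, and -0.43 and -0.48 when arrays were centred). None of the 4 UGT84 members was called. UGT84A3 and UGT84A4 belong to the subfamily that makes glucose esters of hydroxycinnamic acids, and their differences were -0.56 and 0.03 with estrogen, and -0.39 and 0.07 without. UGT84B1 gave -0.16 with estrogen and -0.09 without. UGT84B2, described above for 12 h, had 4.63, 4.11 and 4.60 at 0 h, with differences of -0.34 and 0.15. UGT84A1, which acts on the same acids and shares its probe sets with AT4G15475, was not a member. Its brighter probe set gave 7.61, 7.58 and 7.99 with estrogen, 7.86, 7.59 and 7.92 without, and 8.66, 8.67 and 8.88 at 0 h (log2 -1.01, adjusted p = 0.00167 with estrogen, and -0.94, adjusted p = 0.00252 without). The dimmer one was not called (-0.16 and -0.13), and neither can be assigned to UGT84A1 alone.

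Many UGT genes lie beside each other in the genome. In the RefSeq gene order, 26 of the 51 members stood in 11 runs of adjacent members, the longest of 4 genes. Without estrogen against 0 h, some members were called and others not in 5 of the 11 runs, none was called in 6 runs, and all were called in 0 runs. With estrogen against 0 h the counts were 4, 6 and 1, the fully called run being UGT76C2 with UGT76C1. The differences below are those without estrogen against 0 h. UGT71C5, UGT71C4 and UGT71C3 lie in a row, with differences of -0.19, -0.70 and 1.45, of which the last 2 were called in opposite directions. UGT73B5 and UGT73B4 are adjacent, with differences of -3.12 and 0.88. UGT73B3, UGT73B2 and UGT73B1 form a run with differences of -1.67, -0.39 and -0.12. In the pair of UGT71C2 and UGT71C1 the differences were -1.34 and 0.44, and in the pair of UGT76C2 and UGT76C1 they were -0.78 and -1.07.

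For 4 pairs of genes in 1 family the unequal change was computed directly on each array, as the difference between the 2 genes. UGT73B5 changed by 4.0 less than UGT73B4 (log2 -4.0, SE 0.14). UGT71C3 changed by 2.15 more than UGT71C4 (SE 0.21), UGT74D1 by 1.52 more than UGT74B1 (SE 0.18), and UGT73B3 differed from UGT73B2 by -1.28 (SE 0.38). UGT73B2 lay below the background median in all 3 groups, so a change of UGT73B2 itself may not be readable. In each pair the 3 untreated arrays at 12 h did not overlap the 3 arrays at 0 h. An exact two-sided permutation test gave p = 0.1 for each (0.1 after Benjamini-Hochberg adjustment over the 4), which is the smallest p that 3 arrays against 3 allow. The pairs were chosen with these data known and are a description.

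**Figure D4:**
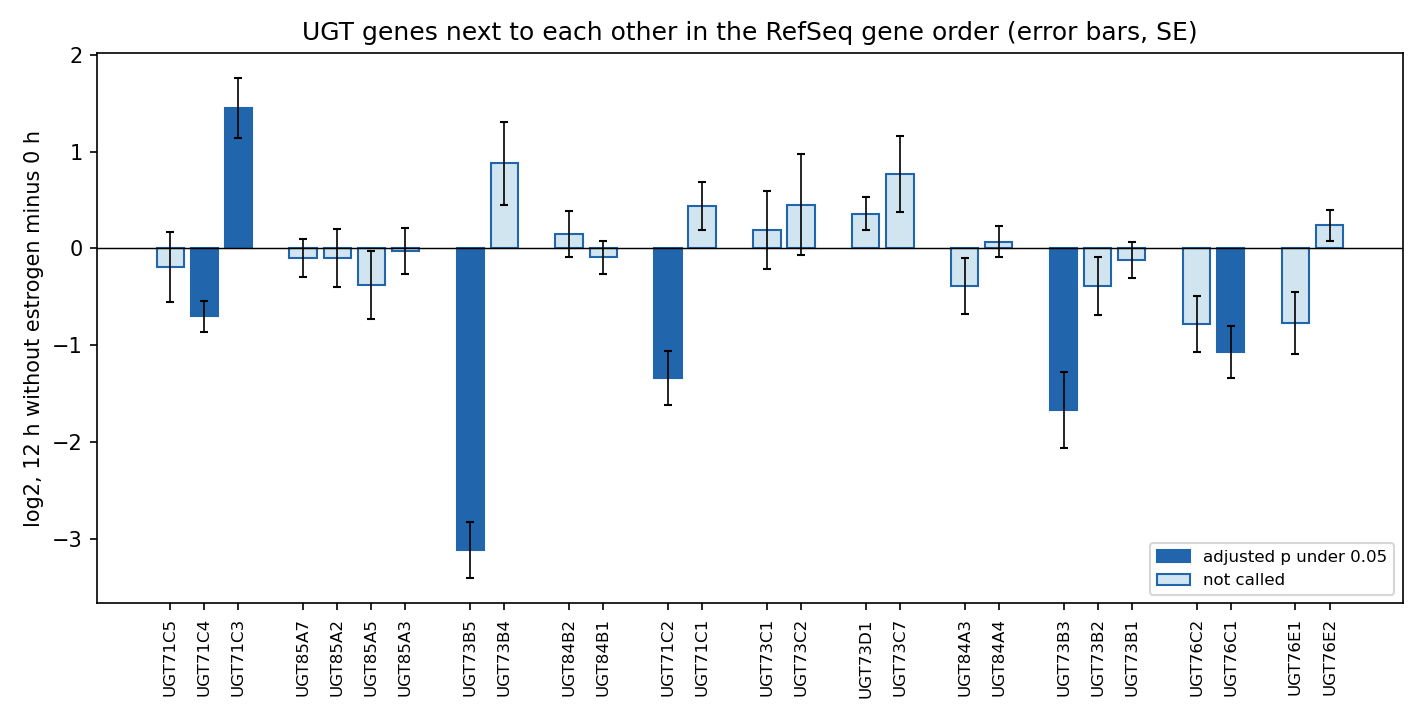
Log2 difference between 12 h without estrogen and 0 h for the 26 UGT genes that lie next to another member in the RefSeq gene order, set side by side within each of the 11 runs. Error bars are the SE of the limma fit over 3 arrays per group, and dark bars have an adjusted p under 0.05. UGT73B5 (-3.12) stands beside UGT73B4 (0.88), and UGT71C4 (-0.70) beside UGT71C3 (1.45).

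Genes that act with UGTs were read from lists of known partners, of which few members had a probe set of their own. Among 24 beta-glucosidase genes, whose products take sugars off glucosides, 5 were lower and 3 higher with estrogen than at 0 h, and 5 were lower and 1 higher without, with medians of -0.09 and -0.13. The shares of all genes were 13.6% lower in both comparisons and 16.5% and 16.4% higher, and 13 of the 24 were below the background median in every group. The replicate block gave 7 of the 24 lower in each comparison, where 19% of all genes were lower with estrogen and 19.3% without. BGLU46, whose product hydrolyses monolignol glucosides, had 4.01, 4.10 and 5.15 with estrogen, 4.11, 4.53 and 5.51 without, and 8.81, 8.93 and 10.04 at 0 h. It was lower by more than any UGT member in both comparisons (log2 -4.84 with estrogen and -4.54 without, SE 0.47 each, adjusted p = 6.02e-05 and 8.36e-05). BGLU21 and BGLU22, scopolin glucosidases, were lower without estrogen than at 0 h (log2 -3.99 and -2.80, adjusted p = 5.64e-06 and 0.000126). Of 6 other genes for hormone inactivation, 1 was higher and 1 lower with estrogen, and 1 higher and 0 lower without. The higher one in both was GH3.1, whose family joins auxin to amino acids (2.76 with estrogen and 2.73 without, adjusted p = 0.000294 and 0.000324). With the replicate block 2 were lower in each comparison, GH3.3 and WES1, of the same family (without estrogen -1.61 and -0.87, adjusted p = 0.00435 and 0.00771).

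Among 11 glutathione transferase genes of detoxification, 1 was lower and 0 higher with estrogen, and 1 lower and 1 higher without. GSTU26 was the lower one (-3.21 with estrogen and -3.29 without, SE 0.42 each, adjusted p = 0.000274 and 0.000248), and GSTU22 the higher one (0.85 without estrogen, adjusted p = 0.0128). The replicate block gave 2 of the 11 higher with estrogen and 3 of the 11 without, where 22.4% and 22.3% of all genes were higher. Of 3 phenylpropanoid and flavonoid genes, HCT, an enzyme on the way to monolignols, was lower in both (-0.69, adjusted p = 0.0144 with estrogen, and -0.71, adjusted p = 0.0134 without). None of 3 glucosinolate genes and not USP, the 1 measured gene of UDP-sugar supply, was called, although GTR2, a glucosinolate transporter, passed without estrogen with the replicate block (0.39, adjusted p = 0.0369). With estrogen against without, 0 genes of any list were called.

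The line has no single defining marker, and markers of other cell types or states were few. Of 12 photosynthetic markers 1 was measured, RCA, with 4.71, 4.88 and 5.32 with estrogen, 4.43, 4.43 and 5.29 without, and 7.80, 7.64 and 8.31 at 0 h (log2 -2.95, adjusted p = 6.85e-05, and -3.20, adjusted p = 4.39e-05). It fell alongside the UGT genes that fell. Of 11 markers of dividing cells 3 were measured, and MCM7 (listed as PRL) was higher at 12 h (2.19 with estrogen and 2.1 without, adjusted p = 0.000216 and 0.000283), while AUR1 and AUR2 did not pass. AUR1 passed with estrogen under the replicate block (0.76, adjusted p = 0.0141). The averaged level of these 3 ran from 6.29 to 6.91 with estrogen, 6.30 to 6.61 without and 5.39 to 5.69 at 0 h. The 2 root hair markers (EXPA7 and EXPA18) and the 1 xylem vessel gene (IRX10, listed as GUT2) measured were not called. The part of these cell states in the UGT differences was not tested.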

How the data were processed

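The authors deposited log2 signals per probe set. The submitters' processing notes name Affymetrix Expression Console 1.3, and the sources used here do not give the summarisation or any normalization. Of 38506 rows, 196 incomplete control rows were left out and 38310 were tested. The annotation named 1 gene for 16722 probe sets, several for 759 and none for 20829. A model with one mean per group was fitted with limma 3.58.1 in R 4.3.3 to the 9 arrays together (lmFit, then eBayes). All p-values given as adjusted are limma's, two-sided, with Benjamini-Hochberg adjustment over all probe sets tested, and a call is an adjusted p under 0.05. The script was tested on simulated data. Plots were drawn with matplotlib.

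Members, lists and pairs were chosen with earlier results of these data known. Genes were named as the up to 16 called members with the largest difference from 0 h, the 4 with the smallest p between the estrogen groups, any member that alone of its subfamily moved opposite to a called member of it, and the member with the brightest probe set. UGT71C4 and UGT76E12 were named after their values were seen. One symbol that names a different gene was taken off the phenylpropanoid list.

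Replicate numbers come from the sample titles. Between groups, arrays of one number deviated together from their group means (r = 0.173 to 0.616). Every such r exceeded 0.1, the rule set for a pairing. Crossing numbers 1 and 2 also gave r above 0.1, so the rule does not show that samples were paired. The p-values are from the model without the block unless the block is named, and blocked values stand beside calls that they change. For replicate 3 r was 0.445 to 0.616. For replicates 1 and 2 it was 0.173 to 0.383, and crossing those numbers gave 0.156 to 0.277, so the shared deviation came mainly from replicate 3. Alternative settings took the replicate number as a block, replicate 3 as a processing batch, replicates 1 and 2 only, or the arrays of the 2 groups compared. The sample titles name no processing batch, and that block only sets replicate 3 apart from replicates 1 and 2. Others were quantile normalization, median centring, a filter on the dimmest 25%, array weights, a robust prior with an intensity trend, a 2-fold minimum, a limit of 0.01 on the adjusted p, the lowest-mean probe set per gene, and leaving out single arrays. Added after the data were seen were 4 UGT genes listed under other symbols.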

Additional observations from a re-analysis of the deposited data

Results flagged for a closer look

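One result was found outside the 51 members. UGT72B1, which conjugates chlorinated phenols and anilines as well as monolignols, is listed under the symbol GT72B1 and so was not a member. It had signals of 3.81, 3.99 and 3.83 with estrogen, 4.09, 4.21 and 4.03 without, and 3.25, 3.4 and 3.66 at 0 h, with no overlap between either group at 12 h and 0 h. Without estrogen it was higher than at 0 h by 0.68 (SE 0.16, limma adjusted p = 0.00899). With estrogen the difference was 0.45 (SE 0.16, adjusted p = 0.056), and it passed with the replicate block (adjusted p = 0.0214). All 3 group means lay below the background median of 4.2. Within the UGT72 members, UGT72E1 fell and none rose.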

How the results depend on the processing

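With the replicate block, 22 members were called without estrogen against 0 h, 23 with estrogen against 0 h and 0 between the estrogen groups. The block ended no call. The processing batch block gave 22, 22 and 0. No alternative called a member between the estrogen groups. Leaving out single arrays gave 0 calls there, 13 to 17 with estrogen against 0 h and 13 to 17 without. Median centring gave 33 calls with estrogen and 30 without, and a 2-fold minimum gave 11 with estrogen. Shares of all genes are given above for the replicate block and for centring. They are not given for the processing batch block, single-array omissions, the 2-fold minimum or lowest-mean probe sets. Those counts therefore show only how the calls moved, not whether UGT genes differ from other genes. The median difference between the estrogen groups was -0.08 after centring and -0.16 to 0.10 when single arrays were left out. With estrogen against 0 h it was -0.34 after quantile normalization, -0.68 after centring, -0.36 over the 30 members left when the dimmest probe sets were removed, and -0.37 to -0.03 without single arrays. Without estrogen against 0 h it was -0.27 after quantile normalization, -0.58 after centring, -0.16 in replicates 1 and 2, and -0.21 to 0.02 without single arrays. A lowest-mean probe set per gene gave 14 calls with estrogen and 13 without, since UGT74D1, UGT76E12 and UGT85A4 were not called on theirs. Centring and quantile normalization also lowered the median of all genes in both comparisons with 0 h. Among the 22 genes named by the rule for the comparisons with 0 h, signs turned where a gene was not called. With estrogen against 0 h these were UGT76E2 (-0.31) and UGT89B1 (-0.09) after centring, UGT85A2 in replicates 1 and 2 (0.04), and UGT71B1 (-0.38 to 0.26) and UGT72E2 (-0.42 to 0.15) without single arrays. Without estrogen they were, after centring, UGT71B1 (-0.38), UGT72E2 (-0.43), UGT76E2 (-0.22) and UGT78D1 (-0.10). After quantile normalization they were UGT71B1 (-0.07) and UGT72E2 (-0.02). UGT85A2 turned in replicates 1 and 2 (0.37) and with array weights (0.29). Without single arrays the ranges were -0.19 to 0.39 for UGT71B1, -0.21 to 0.30 for UGT72E2, -0.32 to 0.02 for UGT78D3 and -0.25 to 0.17 for UGT85A2. On their own probe set and at the same threshold, 10 of these 22 kept direction and call in every refit with estrogen and 12 without. UGT74D1 and UGT85A4 are among them only on that probe set. The causes of these shifts were not tested. Array weights were 0.244 to 0.288 for replicate 3 and 1.16 to 2.97 for the rest, so replicate 3 departed most from the fitted group means.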

Other observations

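Of the other 3 UGT genes listed under another symbol, UGT80A2 (listed as SGT), a sterol glucosyltransferase like UGT80B1, had 8.43, 8.49 and 8.37 with estrogen, 8.29, 8.25 and 8.38 without, and 9.0, 9.10 and 9.14 at 0 h. It was lower on every array at 12 h (log2 -0.64, limma adjusted p = 0.00493 with estrogen, and -0.77, adjusted p = 0.00195 without, SE 0.14 each). UGT79B1 (listed as UF3GT), an anthocyanin xylosyltransferase, and UGT79B6 (listed as AT5G54010) were not called, with differences without estrogen of 0.01 and 0.12. With estrogen against without, none of the 4 was called.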
